A study of Caenorhabditis elegans with 2 samples.

Results

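Of the 1972 sites of MADF-8 in young adult Caenorhabditis elegans, 448 (22.7%, 95% Wilson interval 20.9% to 24.6%) lay between genes and outside promoters. A site is an interval on the genome with a summit, the base of highest signal. It was counted here when its summit lay in no annotated gene of any kind and in no promoter window, which takes 500 bp before and 100 bp after the start of each protein-coding transcript. Another 1137 sites lay at promoters by the same windows, and 387 lay within genes outside promoters. The assay was chromatin immunoprecipitation with sequencing (ChIP-seq) in 2 biological replicates, which form 1 group. Both are whole worms of strain RW12322, young adults of 64 hours, synchronised as starved first-stage larvae, with a CRISPR insertion that puts TY1, EGFP and 3xFLAG tags on the product of the madf-8 gene. Chromatin was sheared by sonication and recovered with an antibody against GFP. There is no second condition, the sites of a whole worm cannot be assigned to a tissue, and the depth of the libraries is unknown because the files hold sites and not reads. No test was made between classes of sites, since the sites of 1 ChIP are not replicates of a condition. Shares are given with Wilson intervals and medians with exact order-statistic intervals, all at 95%, and these cover counting error over sites only.

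MADF domains are DNA-binding folds related to the Myb domain, and proteins that carry them bind DNA at gene promoters and elsewhere. In the compact worm genome most known regulatory sequence lies close to gene starts, but the sequence between genes also holds distal enhancers, unannotated starts of transcription, small RNA genes and repeated elements. Sites there can therefore be read by their distance to coding starts and ends, by the RNA genes beside them and by their sequence. Intergenic sequence outside promoters, by the same rule, covers 26208583 of the 100272607 bases of assembly WBcel235 (26.1%).

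The sequences of leading sites show the 2 kinds of feature described further on, short shared words and longer repeated stretches. Each is the summit with 50 bases on either side, read 5′ to 3′ on the plus strand of WBcel235 from the RefSeq genome. The first group is the 5 strongest of the sites on the other chromosomes than the first, at chrIII:9617091-9617191 (nearest coding start hcp-3), chrIII:5663661-5663761 (par-3), chrIV:13311459-13311559 (fat-1), chrII:2451154-2451254 (pqn-42) and chrIV:3212077-3212177 (slmp-1). Capitals mark the word GCGAGACC or its reverse complement, and the sites with no capitals hold none of the 3 words named below.
hcp-3: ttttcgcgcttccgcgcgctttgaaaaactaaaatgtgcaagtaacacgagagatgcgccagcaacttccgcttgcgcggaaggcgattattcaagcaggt
par-3: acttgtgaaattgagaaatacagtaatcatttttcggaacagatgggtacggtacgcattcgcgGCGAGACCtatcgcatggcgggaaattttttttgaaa
fat-1: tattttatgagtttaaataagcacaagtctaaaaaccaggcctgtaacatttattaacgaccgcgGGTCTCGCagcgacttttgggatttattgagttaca
pqn-42: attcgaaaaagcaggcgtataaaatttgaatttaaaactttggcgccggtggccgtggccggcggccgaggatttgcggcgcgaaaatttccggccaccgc
slmp-1: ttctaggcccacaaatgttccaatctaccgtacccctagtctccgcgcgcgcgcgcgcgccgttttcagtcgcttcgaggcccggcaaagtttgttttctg

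The next 3 sequences are from other strong sites with a named word, at chrII:4604888-4604988 (F35D11.4), chrII:14245009-14245109 (jmjd-2) and chrII:12284201-12284301 (ife-5), again on the plus strand of WBcel235. Capitals mark the words AAGGCGCA, AAAGGCGC and GCGAGACC, or their reverse complements, merged where they overlap. The first site holds the overlapping pair of words at 2 places.
F35D11.4: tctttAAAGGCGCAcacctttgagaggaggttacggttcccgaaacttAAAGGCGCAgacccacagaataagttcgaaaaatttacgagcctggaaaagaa
jmjd-2: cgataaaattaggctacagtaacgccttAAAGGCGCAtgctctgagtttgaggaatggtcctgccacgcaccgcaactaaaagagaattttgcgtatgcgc
ife-5: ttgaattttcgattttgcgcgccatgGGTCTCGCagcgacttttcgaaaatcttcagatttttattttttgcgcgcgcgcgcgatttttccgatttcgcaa

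The last sequences are from families of sites that share long stretches. Family 1 is shown at chrV:11815726-11815826 and chrIV:10079254-10079354, family 2 at chrIV:9196371-9196471 and chrIV:3313478-3313578, and family 4 at chrIV:15896030-15896130 and chrX:1375196-1375296, all on the plus strand of WBcel235. Capitals mark the longest run that is the same in both members printed.
family 1, D2023.3: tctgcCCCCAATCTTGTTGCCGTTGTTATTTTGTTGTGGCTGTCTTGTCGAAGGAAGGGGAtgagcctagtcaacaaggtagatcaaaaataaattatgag
family 1, W01B6.6: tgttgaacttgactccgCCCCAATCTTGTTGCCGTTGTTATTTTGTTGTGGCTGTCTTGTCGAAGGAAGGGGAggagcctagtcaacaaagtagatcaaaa
family 2, C46C2.7: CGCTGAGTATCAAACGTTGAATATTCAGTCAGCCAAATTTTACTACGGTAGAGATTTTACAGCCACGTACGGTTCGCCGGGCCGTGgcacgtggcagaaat
family 2, zip-11: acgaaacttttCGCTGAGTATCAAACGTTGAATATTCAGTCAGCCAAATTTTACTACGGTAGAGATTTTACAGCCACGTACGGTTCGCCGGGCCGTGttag
family 4, srv-14: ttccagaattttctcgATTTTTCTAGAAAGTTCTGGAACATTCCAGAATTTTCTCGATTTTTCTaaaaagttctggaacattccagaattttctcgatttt
family 4, fbxa-190: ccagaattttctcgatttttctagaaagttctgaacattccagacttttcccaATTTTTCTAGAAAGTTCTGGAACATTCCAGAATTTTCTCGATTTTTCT

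The intergenic sites had a median signal near that of the whole list. Their signal, the authors' value for a site in the list made from both replicates, had a median of 121.0 (111.0 to 129.5, n = 448) and ran from 3.52 to 2985.66. Its quartiles were 86.4 and 199.7. Promoter sites had a median of 131.9 (126.1 to 139.2, n = 1137), sites within genes 94.99 (88.58 to 99.98, n = 387), and all sites 119.7 (115.8 to 124.5). The intervals of the intergenic and promoter medians overlapped, and the whole interval for sites within genes lay below both. The signal was under 50 at 16 intergenic sites, and 11 of these 16 overlapped another site of the list.

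**Figure D1:**
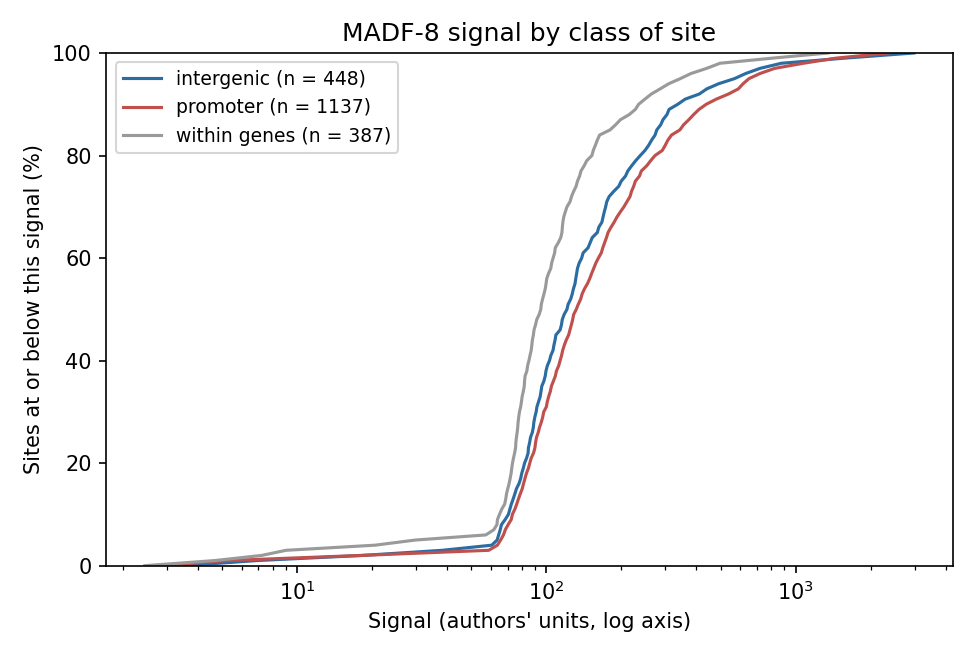
Share of sites (y axis, %) at or below a signal (x axis, the authors' units, log axis) for the 448 intergenic sites, 1137 promoter sites and 387 sites within genes, as 1 curve each. From the lower to the upper quartile the intergenic curve runs between the others, with medians of 121.0 at intergenic sites, 131.9 at promoters and 94.99 within genes.

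Taken from each replicate's own ranked list, the median signal at the intergenic sites was 55.3 in replicate 1 (n = 444) and 69.2 in replicate 2 (n = 445). In both lists together 441 sites had a value, with a Spearman correlation of 0.820 across sites, against 0.822 across all 1942 sites with both values. Replicate 2 was higher at 335 of the 441 sites (76.0%), and the median ratio of replicate 2 to replicate 1 was 1.24. The ratio over all sites was 1.23. The scale of each list is not given, so a difference in scale and a difference in the samples cannot be told apart. A neighbouring site took the same entry of the ranked list at 24 intergenic sites in replicate 1 and 23 in replicate 2, so those values are shared.

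Each replicate also has its own thresholded set of sites. Of the 448 sites, 262 (58.5%, 53.9% to 63.0%) had an overlapping site in each replicate's set, against 58.3% of all 1972 sites. Replicate 1 alone held 33, replicate 2 alone 80, and neither held 73 (16.3%). Among promoter sites 64.6% were in both sets, and among sites within genes 39.3%. Presence in both sets followed the signal: 214 of the 224 sites at or above the median signal were in both, and 48 of the 224 under it. The set that the authors named conservative held 409 of the 448 (91.3%), against 89.1% of all sites. Among the 73 in neither replicate's set, the strongest lay at chrIII:8860845-8861120, with a signal of 115.1 from both replicates together, 54.3 in replicate 1 and 59.8 in replicate 2.

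**Figure D2:**
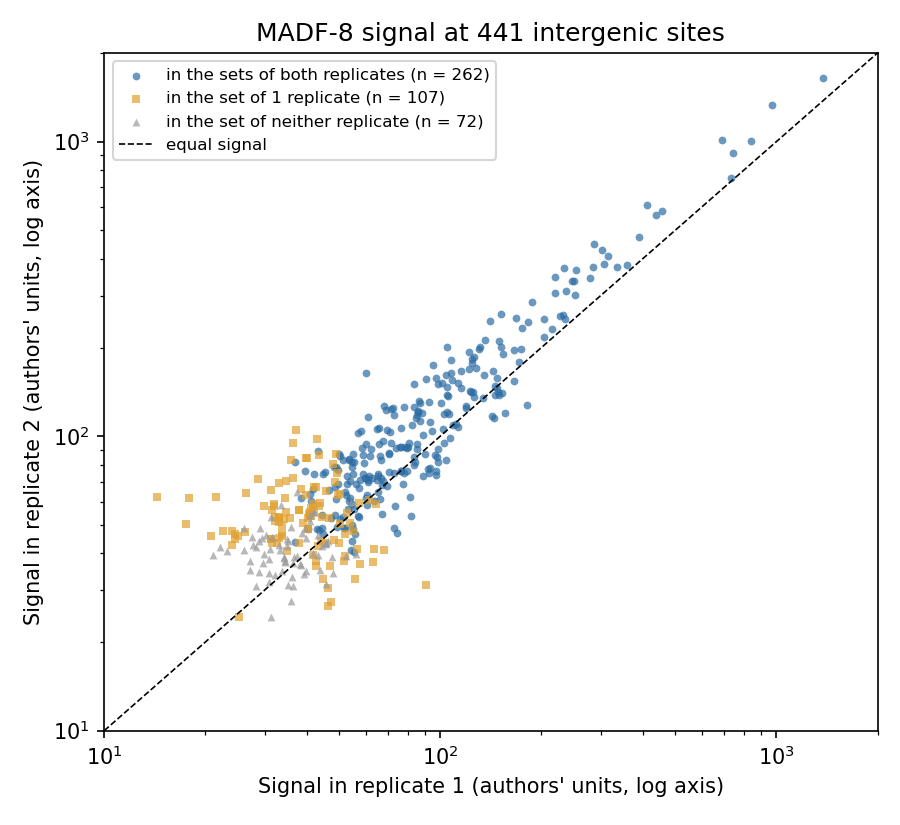
Signal of the 441 intergenic sites with a value in both replicates, replicate 1 on the x axis and replicate 2 on the y axis (the authors' units, log axes), 1 point per site. Sites in the sets of both replicates (262) fill the upper range, sites in 1 set (107) or neither (72) the lower, and 335 of the 441 points lie above the dashed line of equal signal.

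The strongest site of the whole list was intergenic. It lay on chromosome I at 13310646 to 13310978, with a signal of 2985.66, of 1372.62 in replicate 1 and 1639.83 in replicate 2. Its summit was 55 bp past the end of pde-1, a phosphodiesterase gene, in a gap where pde-1 and T04D3.8 converge, and 416 bp upstream of a transfer RNA gene. Among all sites, 5 of the 15 strongest, 10 of the 50 strongest and 20 of the 100 strongest were intergenic, beside 22.7% of the whole list. The counts among the strongest 50 and 100 were thus near that share. The second intergenic site by signal lay 671 bp upstream of hcp-3, which encodes the centromeric histone CENP-A, and measured 2294.05, with 971.4 in replicate 1 and 1334.9 in replicate 2. Another site lay 690 bp upstream of hcp-4, which encodes the centromere protein CENP-C, and measured 1001.3, with 437.7 and 564.2. The third site by signal lay 522 bp upstream of par-3, a cell polarity gene, in a divergent gap, and measured 1844.02, with 843.0 and 1007.7. All of these were in the sets of both replicates.

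Strong sites were also found far from coding starts. A site with a signal of 1700.7 (690.8 in replicate 1 and 1015.3 in replicate 2) lay 4135 bp upstream of fat-1, a fatty acid desaturase gene, and 686 bp past the end of the gene behind it, Y67H2A.7. A site of 1653.9 (743.7 and 913.1) lay 257 bp past the end of vab-19, 3489 bp from the nearest start, that of pqn-42. On chromosome I, a site of 1021.4 (411.6 and 611.1) lay between F55D12.2 and the nuclear receptor gene unc-55, 5933 bp from the nearest coding start. These 3 had the highest signals among the 146 intergenic sites over 2000 bp from any coding start. In all, the 15 strongest intergenic sites ran from 708.3 to 2985.66, all were in the sets of both replicates, and replicate 2 was higher at all 15. Of the 15, 6 lay up to 1000 bp upstream of their nearest coding start, including sites 590 bp upstream of app-1, an aminopeptidase gene, and 648 bp upstream of rpa-2, a subunit of replication protein A. A site 1456 bp upstream of jmjd-2, a histone demethylase gene, measured 727.1 (315.7 and 409.4).

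Larger shares of the sites than of intergenic bases lay near the ends of coding genes and just beyond their promoter windows. The next coding start ahead of the summit on its own strand was at most 1000 bp away at 148 sites (33.0%, 28.8% to 37.5%), where 17.3% of intergenic bases lie. It was 1000 to 2000 bp away at 93 sites (20.8%, against 21.9% of bases) and over 2000 bp away at 207 (46.2%, against 60.8%). The nearest bin held most of these, with 98 sites (21.9%) from 500 to 750 bp, beside 9.49% of bases, and 50 (11.2%) from 750 to 1000 bp, beside 7.80% of bases. The median signal was 132.0 (116.6 to 164.1) at the sites up to 1000 bp away, 99.0 (90.5 to 126.3) from 1000 to 2000 bp and 117.5 (107.6 to 131.0) beyond. These 3 intervals overlapped.

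On the other side of genes, 180 sites (40.2%, 35.7% to 44.8%) had their summit within 500 bp past the end of a coding gene, where 15.7% of intergenic bases lie. Most were within 400 bp, since 41 sites lay in the first 100 bp past an end, 58 from 100 to 200 bp, 41 from 200 to 300 bp and 27 from 300 to 400 bp. In the 100 to 200 bp bin that was 12.9% of the sites and 3.55% of the bases. From 400 to 500 bp, 13 sites (2.90%) stood beside 2.35% of bases, and from 500 to 600 bp 22 sites (4.91%) beside 2.09%. Only 47 of the 180 were also within 1000 bp upstream of a start, so 133 sites (29.7%, 25.6% to 34.1%, against 12.6% of bases) were close to an end alone. Sites close to neither an end nor a start made up 37.3% (167 sites, 32.9% to 41.8%), where 70.1% of the bases lie. The sites past an end had a median signal of 104.3 (97.8 to 115.8) and the other 268 a median of 132.2 (121.0 to 151.03), and 92 of 180 (51.1%) against 170 of 268 (63.4%) were in the sets of both replicates. A share of bases counts every base, also in repeated sequence where short reads cannot be placed at 1 position, and its part in these shares was not tested. The bases also include chromosome X, which has 23.4% of them and 3.57% of the sites. The part of X in these shares, and in those by gap and by noncoding gene below, was not tested.

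**Figure D3:**
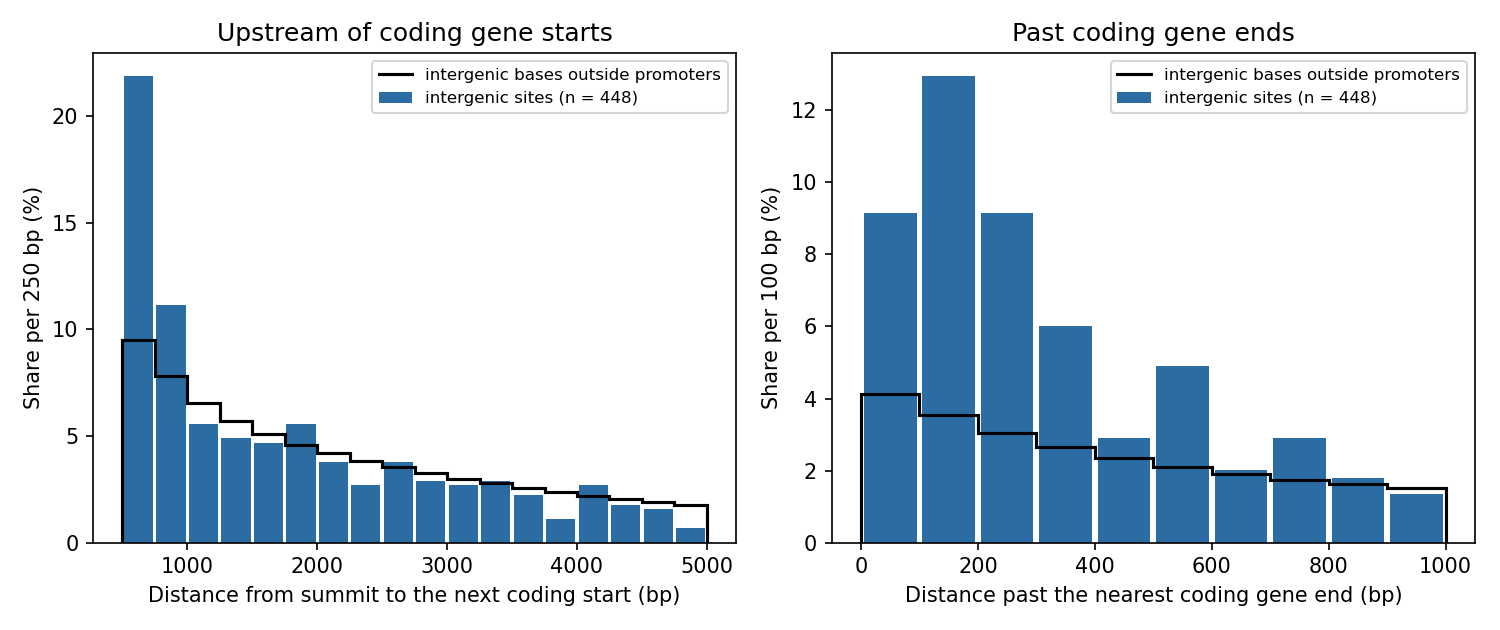
Distance of the 448 intergenic summits to the next coding start ahead of them (left, per 250 bp) and past the nearest coding gene end (right, per 100 bp), as a share of sites (bars, %) and of intergenic bases outside promoters (black line, %). The first 2 bars on the left and the first 4 on the right stand highest above the line, and the tallest on the right, 58 sites, covers 100 to 200 bp.

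The gaps that hold the sites were of all 3 orientations. A gap between neighbouring coding genes is tandem when both run the same way, divergent when their starts face it and convergent when their ends do. Tandem gaps held 248 sites (55.4%, against 54.1% of bases), divergent gaps 113 (25.2%, 21.4% to 29.4%, against 33.0%) and convergent gaps 87 (19.4%, 16.02% to 23.3%, against 12.8%). The median signal was 121.7 in tandem, 132.5 in divergent and 107.5 in convergent gaps, with overlapping intervals. Another site of the list lay within 1000 bp of 78 intergenic sites (17.4%) and within 5000 bp of 181 (40.4%), against 42.4% of all sites for the wider distance.

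Genes of germline and soma lists were set against all coding genes. Within 2000 bp of a coding start lay 302 sites, 208 of them upstream of it, nearest to 292 different genes, which is 1.46% of the 19973 coding genes. Of 35 oogenesis and maternal regulators 3 were among these genes (8.57%), of 51 genes of the cell cycle and DNA replication 3 (5.88%), of 38 germ granule and small RNA genes 1, of 38 meiosis genes 0, of 27 muscle genes 1 and of 23 intestine genes 0. At a share of 1.46%, lists of 23 to 38 genes would hold under 1 such gene, so their counts of 0 or 1 show no difference from it. The other counts rest on 3 genes each and were not tested. The lists were chosen with earlier results of these data known, so no excess is read from them. A site of 158.9 (88.8 in replicate 1 and 73.4 in replicate 2) lay 653 bp upstream of glp-1, the Notch receptor of the germline stem cells. The sites of the other 2 oogenesis genes lay past gene ends, that of puf-11 at 82 bp with 114.1 (42.0 and 74.6) and that of pos-1 at 167 bp with 26.8 (26.1 and 48.8), the latter in neither replicate's set. Of the cell cycle genes, hcp-3 and hcp-4 had the strong sites above, and cya-1, which encodes a cyclin A, had 2 overlapping sites of 89.7 and 18.5, in the set of replicate 2 alone. Upstream of mut-16, a gene of the small RNA amplification bodies, a site at 1233 bp measured 168.0 (73.7 and 91.4). The 1275 chemoreceptor genes, 6.38% of all coding genes, were nearest to 5 sites (1.66% of the 302), among them srh-8 with a site of 487.0 (235.6 and 249.3) at 735 bp upstream. That site also lay 475 bp upstream of the start of a pseudogene.

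Genes of the cytosolic ribosome were nearest to 8 of the 302 sites (2.65%), though they are 78 of the 19973 coding genes (0.391%), and none of the 8 lay upstream. All 8 were downstream of the ribosomal protein gene's start, and their summits were 34 to 150 bp past the end of that gene or of the gene facing it. A summit past a gene's end counts for that gene only within 2000 bp of its start, which short genes meet more readily. The part of gene length in this share, and in that of the histone genes below, was not tested. The strongest, near rps-19, measured 136.4 (55.3 in replicate 1 and 81.6 in replicate 2) and was the only one in the sets of both replicates. The others, near rpl-31, rps-13, rps-6, rps-15, rpl-11.1, rpl-25.2 and rps-8, ran from 58.7 to 98.9, all below the median of the intergenic sites. Histone genes, 50 in all or 0.250% of coding genes, were nearest to 4 sites (1.32% of the 302), with 3 of them 77 to 134 bp past the end of his-58, his-64 and his-63 and signals of 108.8, 101.4 and 75.3. These genes have similar copies elsewhere, and 56.5%, 85.4% and 79.7% of the 31-base words of the 3 sites were unique in the genome. The part of the copies in the values was not tested. The fourth site, 582 bp upstream of his-42, measured 47.6 and was in neither replicate's set.

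Some sites lay at the starts of genes for small nuclear, nucleolar and transfer RNAs. A noncoding gene was counted as near when the same window around its start held the summit. This held for 76 sites (16.96%, 13.8% to 20.7%), beside 15.2% of intergenic bases, so noncoding genes as a whole stood close to their share of sequence. The classes differed. Genes of small nucleolar RNAs (snoRNAs), which guide the modification of ribosomal RNA, had 16 sites (3.57%, 2.21% to 5.72%, against 0.159% of bases). Small nuclear RNA (snRNA) genes, whose products build the spliceosome and carry spliced leaders, had 7 (1.56%, 0.759% to 3.19%, against 0.0727%), and transfer RNA genes 9 (2.01%, 1.06% to 3.77%, against 0.431%). Pseudogenes had 25 (5.58%, against 2.71%), and genes of the class ncRNA 21 (4.69%, against 5.38%). The piRNA genes, short transcription units of the germline whose start windows cover much intergenic sequence, had 3 sites (0.670%, 0.228% to 1.95%, against 6.49% of bases). No site was near a microRNA, ribosomal RNA or antisense RNA start, which allows a share of up to 0.850%. Their windows cover 0.194%, 0.0336% and 0.0232% of bases, so these zeros do not set the classes apart.

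At most snoRNA, snRNA and transfer RNA genes the summits lay close to the start. The median distance upstream of it was 52 bp over the 16 snoRNA genes, 51 bp over the 7 snRNA genes and 55 bp over the 11 transfer RNA genes beside the 9 sites. For the 22 genes of the class ncRNA it was 204.5 bp. The strongest transfer RNA sites, of 2985.66 and 179.0, were exceptions at 416 and 450 bp, as was a snoRNA site at 368 bp. The strongest snoRNA site stood 65 bp upstream of F59C6.15 and measured 297.0, with 143.4 in replicate 1 and 165.9 in replicate 2. Next came Y23H5B.10 at 41 bp with 222.8 (104.7 and 120.6) and W03C9.9 at 63 bp with 218.8 (109.4 and 108.8). Among snRNA genes, sls-2.1, which encodes a spliced leader RNA for trans-splicing, had a site of 275.1 (107.5 and 163.6) at 52 bp. Y54G9A.8 had one of 134.2 (55.1 and 87.1) at 121 bp, and F38E11.11 one of 116.6 (39.5 and 76.2) at 51 bp. Of the snoRNA sites 10 of 16 were in the sets of both replicates, of the snRNA sites 4 of 7 and of the transfer RNA sites 5 of 9, near the 58.3% of all sites. The median signal was 110.1 at snoRNA, 108.5 at snRNA and 106.1 at transfer RNA genes, below the intergenic median of 121.0. These genes occur in families of similar copies, so reads from copies may be placed on 1 another, and the part of this in the counts was not tested.

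The X chromosome held few intergenic sites. It has 23.4% of intergenic bases and 16 of the 448 sites (3.57%, 2.21% to 5.72%), beside 2.79% of all 1972 sites. Chromosome I held 100 sites (22.3%, 18.7% to 26.4%) with 11.7% of bases, chromosome II 88 (19.6%, 16.2% to 23.6%) with 14.5%, and chromosome III 74 (16.5%, 13.4% to 20.2%) with 11.4%. Chromosomes IV and V held 80 (17.9%) and 90 (20.1%), close to their 19.4% and 19.6% of bases. Of all 1972 sites, 21.2% lay on I, 20.5% on II, 20.8% on III, 16.6% on IV and 18.1% on V. The shares on I and II were thus near those of the whole list, and on III the intergenic interval lay below it. The middle of 3 equal parts of each autosome held 153 of 432 autosomal sites (35.4%, 31.1% to 40.0%), beside 32.6% of bases. The sites on X had a median signal of 84.2 (72.9 to 88.7), against 123.3 (114.6 to 131.2) on the autosomes, and 4 of 16 were in the sets of both replicates, against 258 of 432. Among the intergenic sites at or above the median signal of all sites, 0.889% were on X. The strongest of the 16 on X measured 173.7 (97.1 in replicate 1 and 74.1 in replicate 2) and lay 1763 bp upstream of eat-17. Stronger candidates on X that are absent from the list are given in the closing sections, and their part in these values was not tested. One of 108.6 (49.0 and 61.3) lay 942 bp upstream of lin-15B, a gene that represses germline genes in the soma.

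**Figure D4:**
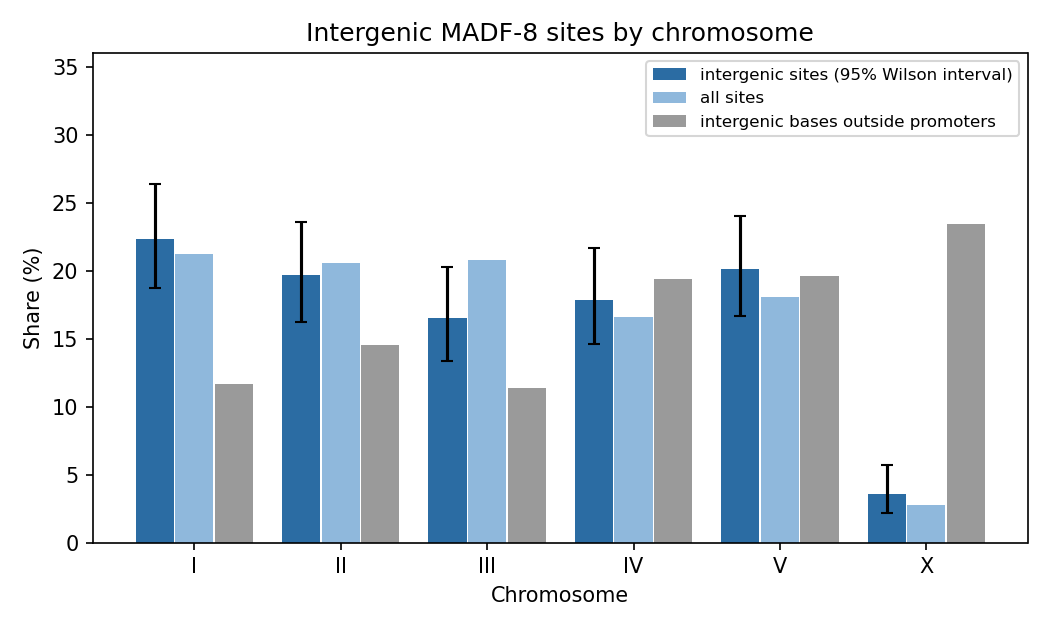
Share (y axis, %) of the 448 intergenic sites (dark bars, error bars 95% Wilson intervals), of all 1972 sites (light bars) and of intergenic bases outside promoters (grey bars) on each chromosome. X holds 3.57% of the intergenic sites and 23.4% of the bases, and chromosomes I, II and III hold more of the sites than of the bases.

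Short words recurred at the summits. The words AAGGCGCA, AAAGGCGC and GCGAGACC were known from earlier results on these sites, so their presence here is a description. Either strand was searched, up to 50 bp from each summit, and the same search was made in 248649 adjoining windows of equal length that tile intergenic sequence outside promoters. AAGGCGCA stood at 64 sites (14.3%, 11.3% to 17.8%) and in 0.319% of the windows. AAAGGCGC, which overlaps it by 7 bases, stood at 67 sites (14.96%, 11.95% to 18.6%) and in 0.391% of windows. At 59 sites both were present. GCGAGACC stood at 37 sites (8.26%, 6.05% to 11.2%) and in 0.339% of windows, and 12 sites held it together with AAGGCGCA. Any of the 3 was present at 95 sites (21.2%, 17.7% to 25.2%), against 0.758% of windows and 19.5% of all sites. At promoter sites the share was 20.8% and at sites within genes 13.95%.

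The words clustered within about 50 bp of the summit. Few of their copies in intergenic sequence outside promoters lay at intergenic summits. Within 50 bp, the median distance from the summit was 26 bp for AAGGCGCA, 25.5 bp for AAAGGCGC and 15.5 bp for GCGAGACC. In the same order, 34 of 70, 38 of 76 and 31 of 41 of these copies lay within 25 bp. AAGGCGCA and AAAGGCGC were thus spread about evenly over that span, and only GCGAGACC was concentrated nearer the summit. In the 500 bp on either side of the summits AAGGCGCA occurred 149 times, 70 of them within 50 bp and 30 at over 250 bp. Intergenic sequence outside promoters holds 892 copies of AAGGCGCA, and 68 (7.62%) lay within 50 bp of an intergenic summit. For AAAGGCGC it was 75 of 1073 (6.99%) and for GCGAGACC 41 of 1116 (3.67%). Of the other words that occurred at 5% or more of the sites, AGGCGCAT, shifted by 1 base from AAGGCGCA, had the highest ratio to the windows, at 63.8 (43 sites, 9.60% against 0.150%). CGGGTCTC, at 25 sites, shares GGTCTC with the reverse complement of GCGAGACC and had a ratio of 35.9. Of the 50 words at 5% or more of the sites, 11 had a ratio of at least 10 and 28 a ratio under 2. The windows were not matched to the sites in GC content, with medians of 32.7% and 42.6%. The part of this in the ratios was not tested.

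**Figure D5:**
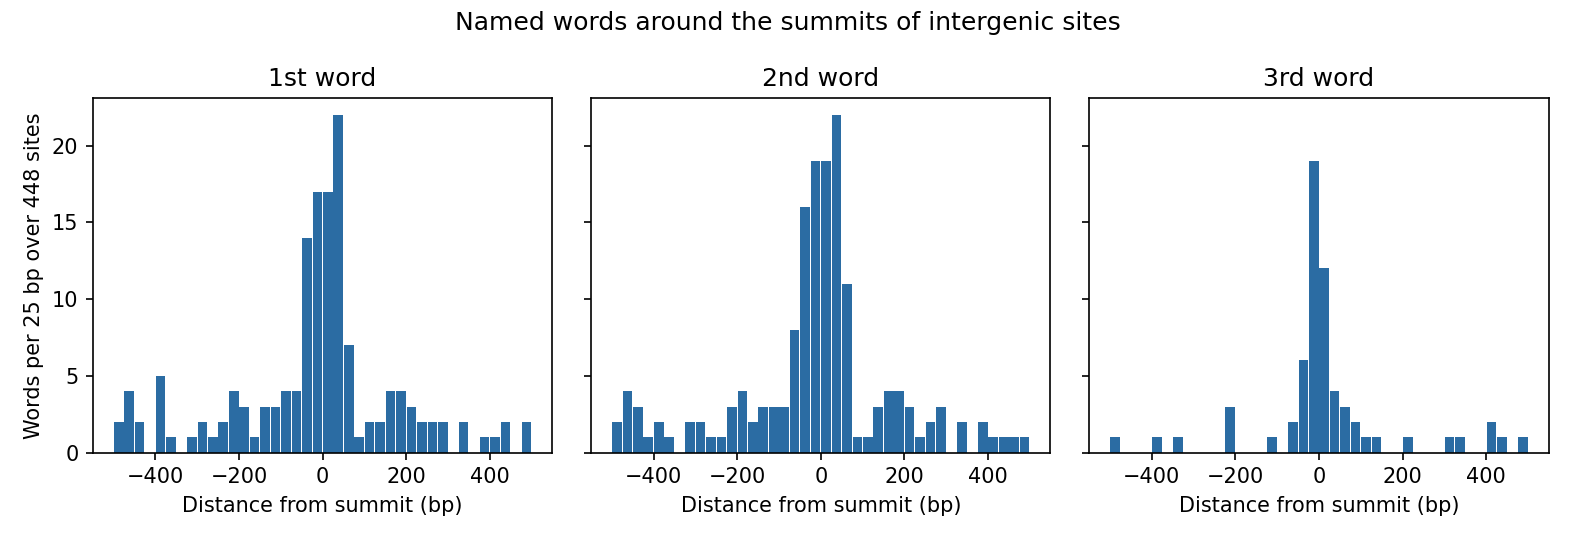
Number of words per 25 bp (y axis) by distance from the summit (x axis, bp) over the 448 intergenic sites, for AAGGCGCA (1st), AAAGGCGC (2nd) and GCGAGACC (3rd), on either strand. Words pile up within about 50 bp of the summit, where AAGGCGCA occurs 70 times and GCGAGACC 41 times.

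Sites with a word had a higher median signal and a larger share in both replicates. Their median signal was 160.9 (132.5 to 186.6, n = 95), against 108.9 (102.0 to 121.0, n = 353) at sites without, and the intervals did not overlap. The words came from earlier results on these same sites, so this difference too is a description and no test. In the sets of both replicates were 75 of 95 (78.9%, 69.7% to 85.9%) and 187 of 353 (53.0%, 47.8% to 58.1%). Presence in both sets followed the signal, as given above, so these shares are not a separate result. Divergent gaps held a word at 35 of 113 sites (31.0%, 23.2% to 40.0%), tandem gaps at 53 of 248 (21.4%, 16.7% to 26.9%) and convergent gaps at 7 of 87 (8.05%, 3.95% to 15.7%). The strongest site with AAGGCGCA is the one near F35D11.4 printed above, 869.0 with 390.1 in replicate 1 and 475.6 in replicate 2. The site of 610.5 (233.6 and 373.6) 554 bp upstream of rod-1, a kinetochore gene, also held it. GCGAGACC was present at the par-3 and fat-1 sites printed above and at the ife-5 site, which measured 574.0 (246.2 and 335.4). The strongest intergenic sites did not all hold a word: 5 of the top 15 did, and the sites near pde-1 and hcp-3 did not.

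Most of the sequence at the sites was unique, but fewer intergenic than promoter sites were unique throughout. Every 31-base word of the interval was unique in the genome at 253 sites (56.5%, 51.8% to 61.0%), against 73.8% of all sites, 86.0% of promoter sites and 57.9% of sites within genes. Under 50% of these words were unique at 52 sites (11.6%, 8.96% to 14.9%), against 2.37% of promoter sites. The rpa-2 site (45.5%) and the stronger cya-1 site (at most 42.7%) are among these 52. Reads from such sites fit several places, and the values there depend on how the authors placed them. The GC content within 50 bases of the summit had a median of 42.6% (41.6% to 43.6%), against 32.7% in the tiled windows and 43.6% at promoter sites.

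Some sites shared longer sequence with each other. Comparing the sequence within 100 bases of each summit by its 12-base words, and joining sites with a Jaccard index (words shared over words in either) of at least 0.2, gave 17 families with 51 sites (11.4%, 8.77% to 14.7%), 8 of them pairs. At an index of 0.5 the share in families was 0.893%. Only 1 of the 51 held a named word. Family 1 had 6 sites on chromosomes III, IV and V with signals from 76.8 to 144.2, of which 2 were in the sets of both replicates. Family 2 was the strongest of the large ones: its 5 sites on chromosomes II and IV ran from 273.3 to 1025.28 and all 5 were in both sets. Its leading site, near C46C2.7, measured 456.0 in replicate 1 and 582.2 in replicate 2. Family 3 had 5 sites on 3 chromosomes, from 60.6 to 172.9, with at most 45.1% unique words and 1 of the 5 in both sets. Its strongest lay at chrIV:15189526-15189801, nearest to the start of srd-23, with 78.7 in replicate 1 and 91.7 in replicate 2. The run common to the pair printed above is 56 bases in family 1, 86 in family 2 and 48 in family 4. Family 4 had 4 sites on 3 chromosomes, from 78.0 to 289.8, with at most 30.5% unique words. All 4 held, on either strand, TTC, GAA and TTC with 2 free bases between neighbours, the pattern of a heat shock element, the binding site of heat shock factor. That pattern, which was chosen after the sequences were seen, occurred at 7 of the 448 sites (1.56%, 0.759% to 3.19%) and in 0.928% of the tiled windows. Of these 7, 4 are the family 4 sites themselves, so the 2 shares show no excess beyond that family.

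The promoter limit of 500 bp falls where sites are common. In the last 25 bp inside it lay 20 promoter sites with a median signal of 154.9 (13.8 to 1706.6). In the first 25 bp outside lay 17 intergenic sites with a median of 188.5 (8.27 to 1844.02). The sites nearest to the limit were close in number and range on both sides, and the par-3 site is 1 of those just outside. With a window of 200 bp upstream 42.3% of all sites would be intergenic, and 17.7% of those would lie from 500 to 1000 bp before a start. With 1000 bp upstream and 200 bp downstream the intergenic share would be 15.2%.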

How the data were processed

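For each replicate and for both together the authors deposited candidate sites ranked by reproducibility, and those that passed an irreproducible discovery rate (IDR) threshold, on assembly ce11 (WBcel235), per the deposited descriptions. The list of both was made from pooled alignments with a control file not analysed here. The sources used here give no aligner, peak caller or scaling. The score column, a scaled IDR score deposited by the authors, runs from 830 to 1000 in the main list. The signal column, as deposited, describes sites within a list. Depth is unknown.

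Members were found in the thresholded list of both replicates from Ensembl release 115 genes (46890 of any biotype) and sequences from the RefSeq genome. Replicate values are those of the overlapping entry (at least 1 bp) in each replicate's ranked list. The ranked lists of both also hold per-replicate columns without sample names, which were not used, and the number of other sample columns left unmapped is 0. Members, words and gene lists were chosen with earlier results of these data known, and 4 listed symbols had no match. Nothing was tested between groups. Named sites were taken, by rank of signal, from the 15 strongest, the 3 strongest near each noncoding biotype with at least 5 sites, on X, in neither replicate's set, over 2000 bp from any coding start and with each word, and the strongest of the 3 largest families, with a few list genes and family 4 added after their values were seen, and not all ranked sites are named. Measures were checked on simulated data. Alternatives were other lists, windows, gene sets, overlaps and family limits, and, added after seeing the data, a score of 1000 and sites without families. Values were computed with scipy 1.17.1, numpy 2.4.6 and pandas 2.3.3 in Python 3.11.15, and plots drawn with matplotlib 3.10.9.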

Additional observations from a re-analysis of the deposited data

Results flagged for a closer look

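Candidates that the ranked list of both replicates holds at a score of at least 830, the lowest score kept, but that are absent from the thresholded list were mostly intergenic. They were flagged as a signal in data outside the main measurement. Of 92 such candidates 82 (89.1%) were intergenic by the same rule. On X lay 16 of the 82, beside 16 of the 448 kept intergenic sites. Their median signal was 116.2, from 19.9 to 2076.63, and 36 of them were above the median of the kept intergenic sites. The strongest, at chrX:15810980-15811155, measured 1093.19 in replicate 1 and 1133.08 in replicate 2, and none of its 31-base words was unique. The next by signal, of 625.1 and 536.4, lay on X as well. The median share of unique words over the 82 was 11.2%. Why the candidates were left out is not given in the sources used here, and the part of repeated sequence in it was not tested.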

How the results depend on the processing

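Under the alternatives 85 values lay within the interval of the reported value and 27 outside it. The intergenic share of all sites was 15.2% with a promoter window of 1000 bp upstream to 200 bp downstream, 42.3% with 200 bp upstream to 100 bp downstream, 24.9% with protein-coding genes only, 15.3% when the whole interval had to lie outside genes and windows, and 20.1% without sequence families. From each replicate's own list it was 23.1% (replicate 1) and 22.5% (replicate 2), and the median signal was 71.5 and 78.7, on those lists' own scales. Pairs from the single replicates are given in this order throughout. At a score of 1000 the median signal was 131.0. The share in the sets of both replicates was 95.1% among the intergenic sites at or above the median signal of all sites, 64.4% with the narrow window and 66.0% at a score of 1000. It has no value from 1 replicate. The share on X was 0.889% at or above that median, and 2.57% and 2.49% from the single replicates. Near a noncoding start the share was 21.9% and 18.5% from the single replicates, 21.3% and 12.8% with the wide and narrow windows, 22.6% with coding genes only, 11.6% for whole intervals and 11.6% with a noncoding window of 200 bp upstream. Up to 1000 bp before a coding start it was 0% by construction with the wide window, 17.7% with the narrow one and 26.2% for whole intervals. A named word was present at 26.045% and 21.3% from the single replicates, 29.8% at or above that median and 25.4% when searched within 100 bp. The median GC content of whole sites was 38.6%. Families held 16.5% of sites at a Jaccard index of 0.1 and 0.893% at 0.5, and 9.65% and 9.67% from the single replicates. Apart from the change of window or list itself, the cause of these moves was not tested. Depth is unknown, so how far it limits the weak sites cannot be given. No paired analysis was possible because both samples form 1 group.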
